A study of Mus musculus with 12 samples.

Results

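Chemokines that draw neutrophils, monocytes and other myeloid or CCR6-, CX3CR1- and CXCR6-bearing cells were examined in B16 cells, a mouse melanoma line, after knockdown of Sdc1 and stimulation with IFNγ. The product of Sdc1, syndecan-1, sits in the cell membrane and carries heparan sulfate chains that bind many secreted proteins. The chemokine genes were Cxcl1 (ENSMUSG00000029380), Cxcl2 (ENSMUSG00000058427), Ccl2 (ENSMUSG00000035385), Ccl7 (ENSMUSG00000035373), Ccl20 (ENSMUSG00000026166), Cx3cl1 (ENSMUSG00000031778) and Cxcl16 (ENSMUSG00000018920). They were chosen by name, with earlier results of these data known. They are the 7 entries of the gene count table with these identifiers, of 56093 entries in all. RNA was sequenced from 12 libraries in 4 groups of 3. The shSdc1 + IFNγ group carried a short hairpin RNA against Sdc1 and received IFNγ at 10 ng/ml for 24 h, and the shRFP + IFNγ group carried a hairpin against RFP, a control target, and received the same IFNγ. The shSdc1 and shRFP groups carried the same hairpins and were unstimulated. All groups were cells of this line grown in serum-containing medium. Beyond the word transfected, neither the delivery nor the number of hairpins is given, and any off-target action of a hairpin cannot be told apart from the loss of Sdc1. Nothing in the labels says that the libraries within a group stem from separate cultures, and the spread behind the p-values may therefore be technical.

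Chemokines are small secreted proteins that guide leukocytes through G protein-coupled receptors, and gradients of them are held on heparan sulfate. In the mouse, CXCL1 and CXCL2 act on CXCR2 and recruit neutrophils, CCL2 and CCL7 act on CCR2 and recruit monocytes, and CCL20 acts on CCR6, which is found on dendritic cells, B cells and a class of T helper cells. CX3CL1 and CXCL16 are unusual in being made as membrane-anchored proteins, which tether cells bearing CX3CR1 or CXCR6 and act as soluble attractants once ADAM10 or ADAM17 cleaves them. Transcription of Cxcl1, Cxcl2, Ccl2 and Ccl20 is known to respond to NF-kB, and their short-lived mRNAs are subject to decay factors.

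The libraries held 14337771 to 21548940 counts, and 14089 genes passed the filter on low counts and were tested. Levels are CPM, the counts scaled to a common library size. Sdc1 itself stood at 27.0, 25.1 and 25.4 CPM in shSdc1 + IFNγ against 83.3, 79.6 and 102.7 CPM in shRFP + IFNγ, and at 23.4, 22.1 and 25.7 CPM in shSdc1 against 76.4, 73.9 and 75.9 CPM in shRFP, so every knockdown library was below every control library. All 7 melanocyte markers were tested, with a summed level of 11747 to 13170 CPM in shSdc1 + IFNγ, 16614 to 18170 CPM in shRFP + IFNγ, 12940 to 13369 CPM in shSdc1 and 17245 to 17292 CPM in shRFP. Of 13 leukocyte markers only Cd68 and Lyz2 passed the filter, and the summed level of the list was 15.8 to 16.6 CPM in shSdc1 + IFNγ, 5.73 to 8.38 CPM in shRFP + IFNγ, 8.50 to 8.92 CPM in shSdc1 and 2.49 to 3.38 CPM in shRFP. This sum ran in the same group order as the neutrophil chemokines described below, and Cd68, a lysosomal protein of macrophages that is also made by other cells, held most of it. Markers that define leukocytes were at or near 0, since Ptprc, Csf1r and Itgam had 1 count each over the 12 libraries and Adgre1, Itgax, Ly6g, S100a9 and Cd3e had 0. Of 7 stromal and epithelial markers Pdgfra alone was tested, and the list summed to 1.87 to 3.06, 2.25 to 3.05, 3.46 to 4.25 and 3.01 to 3.80 CPM in the 4 groups, named in the same order, with Dcn and Krt5 at 0. The gene ENSMUSG00000119584 took 4.79% of all counts in shSdc1 replicate 3 and 0.0842 to 0.195% elsewhere.

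In shSdc1 cells the neutrophil chemokines Cxcl1 and Cxcl2, the CCR6 ligand Ccl20 and the membrane-anchored Cx3cl1 were higher than in shRFP cells with and without IFNγ, and with IFNγ the monocyte chemokine Ccl2 was higher too. Cxcl1 was the most abundant in both knockdown groups. In CPM, Cx3cl1 stood above it in the control groups, at 3.89 against 2.04 in shRFP + IFNγ and 2.29 against 0.393 in shRFP. Cxcl1 was higher with knockdown 15.7-fold with IFNγ and 19.8-fold without it, whereas Cx3cl1 was higher 2.18-fold and 1.59-fold in those settings. Ccl7 had no count in any library, and Cxcl16 stayed low with no call in any comparison. With IFNγ 5 of the 6 tested chemokines passed the test in the direction of higher expression in shSdc1 and 0 in the lower, where 18.9% of all tested genes were called higher and 17.4% lower. Without IFNγ these counts were 4 and 0, where 14% of all tested genes were called higher and 14.6% lower. Fitted on the unstimulated groups alone, whose filter drops Cxcl2, Ccl2, Ccl20 and Cxcl16, the count was 2. In the main fit Cxcl2, Ccl2 and Ccl20 passed the filter only through shSdc1 + IFNγ, where they were high. The counts therefore describe the genes, and nothing is read from setting them against the shares of all genes, here or in the comparisons below. The test was edgeR's quasi-likelihood test with Benjamini-Hochberg adjustment over all tested genes. In bulk RNA a larger share of expressing cells and more RNA per expressing cell cannot be told apart.

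Detection differed widely among the 7 genes. Over the 12 libraries the table held 2107 counts of Cxcl1, 905 of Cx3cl1, 95 of Ccl20, 90 of Cxcl16, 79 of Cxcl2, 65 of Ccl2 and 0 of Ccl7. Cx3cl1 reached 10 counts in all 12 libraries, Cxcl1 in 10 and Cxcl16 in 5, while Cxcl2, Ccl2 and Ccl20 each reached 10 counts in 3 libraries, those of shSdc1 + IFNγ. These last genes therefore entered the test through that group alone, and their passing the filter is itself a sign of where they were high. Ccl7 was below detection: 0 counts allow at most 3 counts in a library, which is 0.137 to 0.211 CPM depending on its depth. Values of Cxcl2, Ccl2 and Ccl20 in the shRFP libraries lie at or under that limit.

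**Figure D1:**
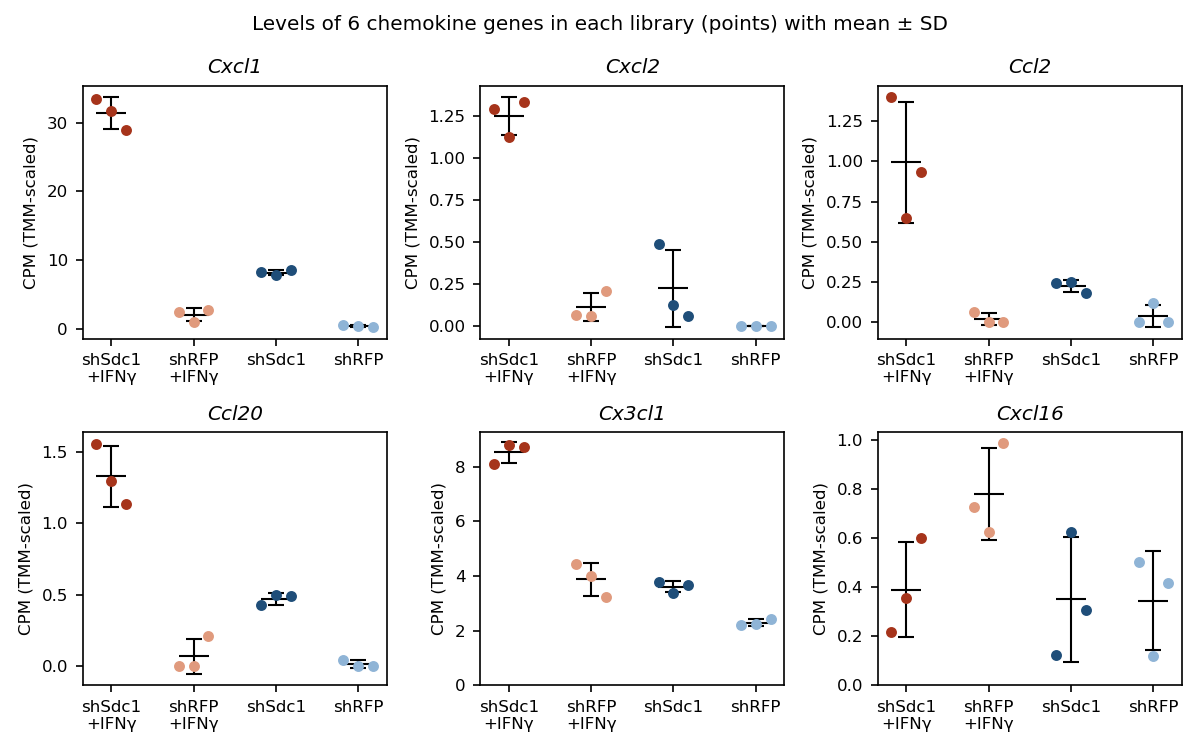
Level in CPM of the 6 chemokines with any count in each library, with 1 panel per gene, points for libraries and bars for the group mean ± SD (n = 3). Cxcl1 averaged 31.4 CPM in shSdc1 + IFNγ and 2.04 CPM in shRFP + IFNγ, and Cxcl16 is the gene whose highest mean lies in shRFP + IFNγ.

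Per kilobase of exon, which lets genes be compared within a library, Cxcl1 led wherever Sdc1 was knocked down. Its mean level was 16.7 CPM per kb in shSdc1 + IFNγ, 1.09 in shRFP + IFNγ, 4.36 in shSdc1 and 0.210 in shRFP. Cx3cl1 stood at 2.17, 0.989, 0.917 and 0.582 CPM per kb in those groups, so it lay below Cxcl1 in both knockdown groups, near it in shRFP + IFNγ and above it in shRFP. In shSdc1 + IFNγ the order went on with Ccl20 at 0.936, Ccl2 at 0.872, Cxcl2 at 0.603 and Cxcl16 at 0.129 CPM per kb. The libraries of Ccl2 overlapped those of both its neighbours in that order, Ccl20 and Cxcl2. In shSdc1 the order below Cx3cl1 was Ccl20 at 0.332, Ccl2 at 0.198, Cxcl16 at 0.116 and Cxcl2 at 0.108 CPM per kb, and the last 3 genes overlapped one another between libraries. Cxcl1 made up 76.8 to 79.4% of the summed level of the 7 genes in shSdc1 + IFNγ, 29.8 to 50.5% in shRFP + IFNγ, 70.9 to 74.4% in shSdc1 and 16.4 to 27.9% in shRFP. The knockdown libraries thus had a higher Cxcl1 share than any control library. In shRFP the larger share belonged to Cx3cl1, with 53.2 to 68.4%. The mean share of Cxcl16 was 1.95% in shSdc1 against 11.8% in shRFP. Its mean level was 0.116 and 0.114 CPM per kb in those groups, so its share was lower because the sum was larger. The summed level was 20.1 to 22.9 CPM per kb in shSdc1 + IFNγ, 1.78 to 2.83 in shRFP + IFNγ, 5.84 to 6.13 in shSdc1 and 0.900 to 1.05 in shRFP, and the ranges of the 4 groups did not overlap.

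**Figure D2:**
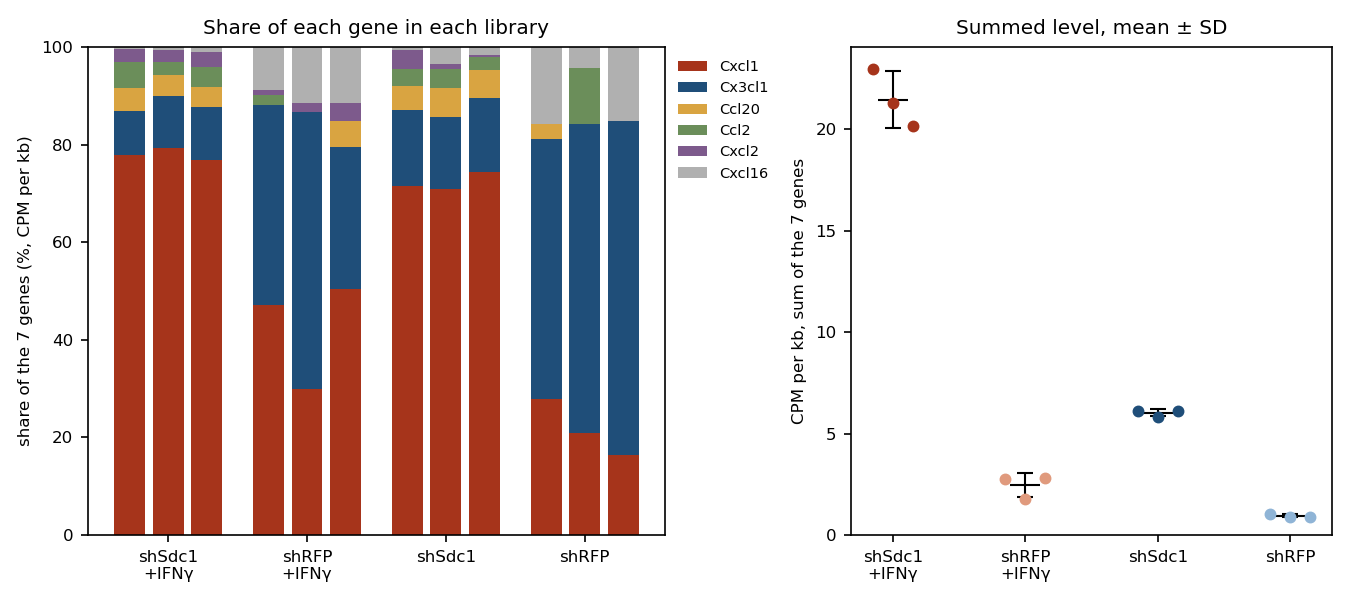
Left, share of each chemokine in the summed level (CPM per kb of exon) of the 7 genes, 1 stacked bar per library. Right, the summed level in CPM per kb. Cxcl1 fills at least 70.9% of every knockdown bar, and Cx3cl1 is the larger part in shRFP.

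Cxcl1, known in the mouse as KC, is a strong neutrophil attractant. Its level was 33.5, 31.7 and 29.0 CPM in the shSdc1 + IFNγ libraries and 2.45, 0.997 and 2.68 CPM in shRFP + IFNγ. In the unstimulated cells it was 8.20, 7.76 and 8.55 CPM in shSdc1 and 0.547, 0.356 and 0.276 CPM in shRFP. The 4 groups did not overlap, and unstimulated knockdown cells were above control cells that had received IFNγ. The knockdown was accompanied by a log2 fold change of 3.96 ± 0.18 with IFNγ (SE, n = 3 against 3, edgeR adjusted p = 7.62e-12) and of 4.29 ± 0.27 without it (edgeR adjusted p = 7.45e-10). These were the 16th and the 11th highest of the 14089 fold changes in their comparisons. From summed counts, 1595 in shSdc1 + IFNγ and 91 in shRFP + IFNγ, the ratio was 15.7 with a 95% exact interval of 12.7 to 19.6, and from 399 in shSdc1 and 22 in shRFP it was 19.8 with an interval of 12.9 to 31.9. These intervals reflect counting error alone, and reads that are PCR copies of a molecule would make them too narrow. IFNγ was accompanied by a further difference in both backgrounds, of 1.94 ± 0.15 in shSdc1 cells (edgeR adjusted p = 4.44e-09) and 2.27 ± 0.36 in shRFP cells (edgeR adjusted p = 8.11e-05). The knockdown effect with IFNγ minus that without was -0.33 ± 0.40 on the log2 scale, which was not past the threshold (edgeR adjusted p = 0.656).

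Cxcl2, or MIP-2 in the mouse, shares the receptor CXCR2 with Cxcl1 and was far less abundant. It had 24, 19 and 20 counts in shSdc1 + IFNγ and 1, 1 and 3 counts in shRFP + IFNγ, or means of 1.25 ± 0.111 and 0.113 ± 0.0849 CPM (SD, n = 3 each). It had 8, 2 and 1 counts in shSdc1 and 0 in each shRFP library. Every knockdown library was above every control library in both settings, with shSdc1 replicate 1 holding most of the unstimulated counts. With IFNγ the ratio of counts was 11.3 with an exact interval of 4.60 to 36.0 (edgeR adjusted p = 0.00025). Without IFNγ the level in shSdc1 was 4.0-fold higher when 3 counts are assumed over the shRFP group (edgeR adjusted p = 0.0125). For the 11 counts against 0 as they stand, the exact interval begins at 2.74. The call was lost without shSdc1 replicate 1 (edgeR adjusted p = 0.0865, where the alternatives tried gave 0.0027 to 0.0865). With IFNγ Cxcl2 was higher in shSdc1 cells by a ratio of 5.53 with an interval of 2.89 to 11.6 (edgeR adjusted p = 0.0014). The fitted log2 value of that comparison was 2.43, and 3.64 without shSdc1 replicate 1. For the knockdown with IFNγ it was 3.41, and 4.12 without shRFP + IFNγ replicate 3. In shRFP cells the 5 counts with IFNγ against 0 without were not past the threshold (edgeR adjusted p = 0.0667). Of the 50-base words of Cxcl2's transcripts, 5.84% also occur in Cxcl3, a closely related gene that had 0 counts in all libraries.

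Cxcl1 and Cxcl2 are neighbours on chromosome 5, and the genes around them in RefSeq's order had few counts or ran in another order. Pf4, Cxcl3 and Cxcl15, on the side of Cxcl1, had 4, 0 and 1 counts over all libraries. Mthfd2l, next to Cxcl2, had 178 counts in shSdc1 + IFNγ, 148 in shRFP + IFNγ, 125 in shSdc1 and 160 in shRFP, which did not follow the chemokines' order. The promoters of the genes that moved with the knockdown are shown because 4 of the 7 members, Cxcl1, Cxcl2, Ccl20 and Cx3cl1, have one in the RefSeq promoters used (GRCm38.p6). Each covers 250 bases before to 50 bases after the annotated start, on the plus strand, 5′ to 3′. They span chr5:90890995-90891294, chr5:90903649-90903948, chr1:83116516-83116815 and chr8:94771930-94772229 in that build, for the genes in the order just given. Capitals mark matches to 5 short motifs searched on both strands: kB (GGANNTTCC), AP-1 (TGANTCA), GAS (TTCNNNGAA), the ISRE core (GAAANNGAA) and the TATA box (TATAAA).
Cxcl1: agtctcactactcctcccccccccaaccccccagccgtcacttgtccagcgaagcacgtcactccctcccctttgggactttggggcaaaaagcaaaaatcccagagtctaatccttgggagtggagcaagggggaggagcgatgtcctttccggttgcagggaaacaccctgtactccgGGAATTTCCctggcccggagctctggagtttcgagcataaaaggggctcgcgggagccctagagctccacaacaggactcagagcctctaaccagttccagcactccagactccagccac
Cxcl2: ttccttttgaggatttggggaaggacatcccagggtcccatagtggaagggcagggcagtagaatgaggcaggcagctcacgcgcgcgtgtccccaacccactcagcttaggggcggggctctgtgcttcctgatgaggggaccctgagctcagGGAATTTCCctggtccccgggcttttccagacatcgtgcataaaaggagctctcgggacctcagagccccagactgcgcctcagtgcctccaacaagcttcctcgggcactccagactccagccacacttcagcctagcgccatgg
Ccl20: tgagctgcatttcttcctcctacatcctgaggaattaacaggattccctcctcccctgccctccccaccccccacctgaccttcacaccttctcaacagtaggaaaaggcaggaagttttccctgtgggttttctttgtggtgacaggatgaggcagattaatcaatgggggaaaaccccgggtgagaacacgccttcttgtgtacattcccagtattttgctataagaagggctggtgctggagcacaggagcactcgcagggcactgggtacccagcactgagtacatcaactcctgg
Cx3cl1: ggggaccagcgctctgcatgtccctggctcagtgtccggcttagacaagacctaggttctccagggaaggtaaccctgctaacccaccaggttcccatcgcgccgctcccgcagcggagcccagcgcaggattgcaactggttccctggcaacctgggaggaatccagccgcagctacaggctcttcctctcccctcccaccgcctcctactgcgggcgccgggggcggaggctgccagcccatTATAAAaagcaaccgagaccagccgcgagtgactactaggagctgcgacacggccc
Cxcl1 and Cxcl2 each held 1 kB match, the identical GGAATTTCC, which reads as a match on either strand. It lay 70 to 62 bases before the start in Cxcl1 and 96 to 88 bases before it in Cxcl2. Of all 32851 tabulated promoters, 4.26% held a kB match. Cx3cl1 held a TATAAA 6 to 1 bases before its annotated start, as did 13.6% of promoters anywhere in the window. AP-1, GAS and the ISRE core, present in 7.81%, 8.3% and 8.56% of promoters, matched in none of these 4, and Ccl20 had none of the 5 motifs. No match overlapped another. These are matches to fixed patterns of letters in a short window, and variants of a site would not be marked. They are not evidence of a factor's binding or of its absence.

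Ccl2, the principal CCR2 ligand and monocyte attractant, was seen mainly in shSdc1 + IFNγ. It had 26, 11 and 14 counts there and 1, 0 and 0 counts in shRFP + IFNγ, or means of 0.993 ± 0.377 and 0.0220 ± 0.0382 CPM (SD, n = 3 each). It had 4, 4 and 3 counts in shSdc1 and 0, 2 and 0 counts in shRFP. Knockdown libraries exceeded control libraries in both settings without overlap. With IFNγ the 51 counts against 1 gave a ratio of 45.8 with an exact interval of 7.85 to 1842 (edgeR adjusted p = 6.63e-05). The single control count lay in shRFP + IFNγ replicate 1, without which the fitted log2 value was 7.07 in place of 5.09. Without IFNγ the 11 counts against 2 gave a ratio of 6.0 with an interval of 1.31 to 55.7, which did not pass the test (edgeR adjusted p = 0.0739). That last value passed when shRFP replicate 2, the only shRFP library with a count, was left out (log2 fold change 4.94, edgeR adjusted p = 0.0223, where the alternatives tried gave 0.0174 to 0.257). IFNγ was accompanied by a ratio of 4.48 with an interval of 2.30 to 9.52 in shSdc1 cells (edgeR adjusted p = 0.00394). In shRFP cells 1 count with IFNγ against 2 without gave 0.587 with an interval of 0.00995 to 11.3 (edgeR adjusted p = 0.793).

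Ccl7, the other CCR2 ligand of the set, lies next to Ccl2 on chromosome 11 and had 0 counts in all 12 libraries. Ccl11, Ccl12 and Ccl8, which follow it in RefSeq's order and encode further attractants of eosinophils and monocytes, also had 0 counts everywhere. At this depth Ccl2 was the single gene of that stretch with a count.

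Ccl20 had 29, 22 and 17 counts in shSdc1 + IFNγ and 0, 0 and 3 counts in shRFP + IFNγ, or means of 1.33 ± 0.214 and 0.0704 ± 0.122 CPM (SD, n = 3 each). It had 7, 8 and 8 counts in shSdc1 and 1, 0 and 0 counts in shRFP. Knockdown libraries lay above control libraries in both settings with no overlap. The ratio was 20.3 with IFNγ, with an exact interval of 6.67 to 101.1 (edgeR adjusted p = 3.07e-05), and 25.1 without it, with an interval of 4.08 to 1034 (edgeR adjusted p = 0.00156). All 3 control counts with IFNγ lay in shRFP + IFNγ replicate 3, and the fitted log2 value of 4.19 became 7.49 without that library and 3.6 without replicate 2 of that group. Without IFNγ the single control count lay in shRFP replicate 1, and the fitted 4.19 became 5.94 without it. In shSdc1 cells IFNγ gave a ratio of 2.85 with an interval of 1.76 to 4.80 (edgeR adjusted p = 0.0102). That call was lost without shSdc1 + IFNγ replicate 1 (edgeR adjusted p = 0.0547, where the alternatives tried gave 0.00247 to 0.0547). In shRFP cells the 3 counts with IFNγ against 1 without gave 3.52 with an interval of 0.283 to 184.9 (edgeR adjusted p = 0.43). Krtap28-13 and Daw1, on either side of Ccl20 on chromosome 1, had 0 counts.

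Cx3cl1, or fractalkine, differed by less than the chemokines above but was measured in every library. Its level was 8.11, 8.80 and 8.73 CPM in shSdc1 + IFNγ and 4.43, 3.99 and 3.24 CPM in shRFP + IFNγ. In unstimulated cells it was 3.77, 3.38 and 3.67 CPM in shSdc1 and 2.19, 2.25 and 2.42 CPM in shRFP. The knockdown libraries were above the control libraries in both settings, while shSdc1 and shRFP + IFNγ overlapped. The log2 fold change with knockdown was 1.13 ± 0.14 with IFNγ (SE, n = 3 against 3, edgeR adjusted p = 4.45e-06) and 0.66 ± 0.17 without it (edgeR adjusted p = 0.00554). With IFNγ against none it was 1.24 ± 0.14 in shSdc1 cells (edgeR adjusted p = 1.47e-06) and 0.77 ± 0.17 in shRFP cells (edgeR adjusted p = 0.00158). The difference between the knockdown effects with and without IFNγ, 0.47 ± 0.22, had an unadjusted edgeR p of 0.0475 and was not past the threshold after adjustment (edgeR adjusted p = 0.187). Ccl22 and Ccl17, which flank Cx3cl1 on chromosome 8, had 0 and 2 counts in all.

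Cxcl16, which binds CXCR6 and, as a membrane protein, also acts as a scavenger receptor for oxidised lipoprotein, ran differently. It had 4, 6 and 9 counts in shSdc1 + IFNγ and 11, 10 and 14 counts in shRFP + IFNγ. It had 2, 10 and 5 counts in shSdc1 and 11, 2 and 6 counts in shRFP. With IFNγ the knockdown libraries all lay below the control libraries, and without IFNγ the groups overlapped. The log2 fold change with knockdown was -1.02 ± 0.52 with IFNγ (SE, n = 3 against 3, edgeR adjusted p = 0.138) and -0.02 without it (edgeR adjusted p = 0.986). The ratio of counts with IFNγ, 19 against 35, was 0.487 with an exact interval of 0.263 to 0.875, so counting error alone would set it below 1 while the test over libraries did not. Its exons overlap Zmynd15 on the opposite strand and share 16.9% of their 50-base words with it. Whether the counting used strand is not stated in the sources used here, and reads within the overlap cannot be told apart. Zmynd15 had 32 counts in shSdc1 + IFNγ, 5 in shRFP + IFNγ, 14 in shSdc1 and 8 in shRFP.

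**Figure D3:**
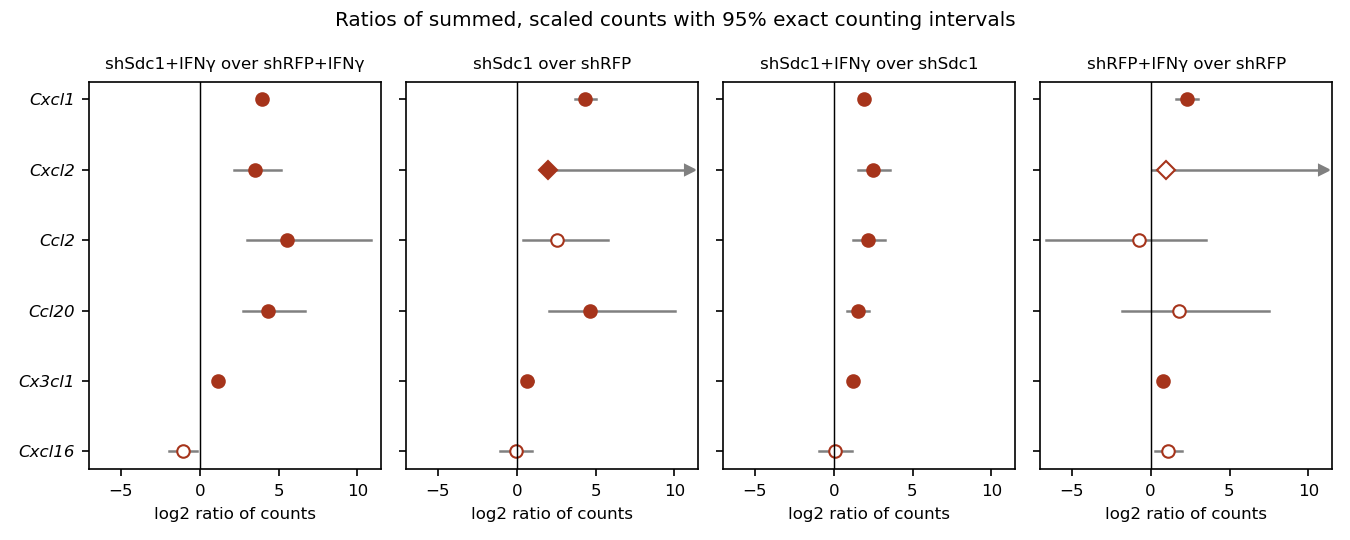
Log2 ratio of summed, scaled counts for 6 chemokines in 4 comparisons, with 95% exact intervals that cover counting error only. Filled symbols had an edgeR adjusted p under 0.05, and open ones did not. Diamonds are ratios with 3 counts set in place of 0, without the counting error of the other group. The knockdown ratios of Cxcl1 and Ccl20 have intervals above those of Cx3cl1 in both settings, the interval of Ccl2 without IFNγ overlaps that of Cx3cl1, and the intervals of Ccl2 and Ccl20 are wide because 1 to 3 counts stand under the ratio.

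IFNγ against none called 5 of the 6 tested chemokines higher and 0 lower in shSdc1 cells, where 17.5% of all tested genes were called higher and 13% lower. In shRFP cells it called 2 higher and 0 lower, Cxcl1 and Cx3cl1, where 17.2% and 14.4% of all tested genes were called. That a gene passed in the knockdown and not in the control cells does not show a difference between them, and the interaction, which tests it, called 0 of the 6. Over all tested genes the interaction called 4.58% higher and 5.15% lower. By limma-voom and DESeq2 the interaction also called 0 of the 6, with 4 of the DESeq2 adjusted p undefined, and at an unadjusted p under 0.05 the number was 1 by edgeR and 0 by either of the others. For Cxcl2, Ccl2 and Ccl20 the interaction rests on the few counts of the control groups and is poorly determined. Cells with both knockdown and IFNγ, set against shRFP cells, had 5 chemokines called higher and 0 lower, where 23.7% and 21.6% of all tested genes were called. The ratio of counts in that comparison was 76.4 for Cxcl1, with an exact interval of 50.3 to 122.2, and 3.75 for Cx3cl1, with an interval of 3.06 to 4.63. For Cxcl2 it was 22.1 when 3 counts are assumed over the shRFP group, and for the 63 counts against 0 as they stand the exact interval begins at 17.5. Without shRFP replicate 1 the fitted log2 value of Ccl20 in this comparison was 7.43 in place of 5.68. That of Ccl2, 4.48, became 7.05 without shRFP replicate 2 and 3.82 without shRFP replicate 1.

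The knockdown alone was also set directly against IFNγ alone. shSdc1 cells exceeded shRFP + IFNγ cells for 3 of the 6, with 0 lower, where 18.2% of all tested genes were called higher and 21.4% lower. Fitted on these groups alone, whose filter drops Cxcl2, Ccl2 and Ccl20, the count was 1. Cxcl1 was higher by 2.02 ± 0.21 on the log2 scale (SE, n = 3 against 3, edgeR adjusted p = 2.71e-07), and Ccl20 had 23 counts against 3, a ratio of 7.12 with an exact interval of 2.15 to 37.1 (edgeR adjusted p = 0.00818). The 3 counts lay in shRFP + IFNγ replicate 3, without which the fitted log2 value of Ccl20 was 6.0 in place of 2.70. Ccl2 had 11 counts against 1, a ratio of 10.2 with an interval of 1.49 to 440.0 (edgeR adjusted p = 0.039). The fitted log2 value of Ccl2 was 2.98, and 4.95 without shRFP + IFNγ replicate 1. The Ccl2 call was lost when any of the 3 shSdc1 libraries or shRFP + IFNγ replicate 2 or 3 was left out, and the edgeR adjusted p over the alternatives was 0.0117 to 0.121. Cx3cl1 did not pass, at -0.11 ± 0.16 (edgeR adjusted p = 0.611), nor did Cxcl2 with 11 counts against 5 (edgeR adjusted p = 0.372). Cxcl16 did not pass either, at -1.13 ± 0.53 (edgeR adjusted p = 0.1), but did without shSdc1 replicate 2 (-1.83, edgeR adjusted p = 0.0336, where the alternatives tried gave 0.0336 to 0.327). The T cell chemokines Cxcl9, Cxcl10, Cxcl11 and Ccl5 went the other way in this comparison, with 0 of 4 called higher and 4 lower. They shared the rise with knockdown itself, by 2.49, 1.14, 3.38 and 2.01 on the log2 scale with IFNγ (all 4 called by edgeR), and without it Cxcl10 rose by 0.90 and Ccl5 by 0.91. Cxcl10 averaged 17.1 ± 1.91 CPM in shSdc1 and 308.2 ± 2.99 CPM in shRFP + IFNγ (SD, n = 3 each).

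Among 20 further chemokines that act on myeloid cells or other leukocytes, only Ccl25, Ccl27a and Ccl28 passed the filter, and the others were not tested. The log2 fold changes of these 3 with knockdown did not pass, at 0.09 for Ccl25, 0.02 for Ccl27a and 0.35 for Ccl28 with IFNγ (edgeR adjusted p of 0.392, 0.967 and 0.202). Without IFNγ they were -0.07, -0.39 and -0.06 (edgeR adjusted p of 0.557, 0.241 and 0.874). The neutrophil attractant Cxcl5 had 4 counts in shSdc1 + IFNγ, 0 in shRFP + IFNγ, 3 in shSdc1 and 0 in shRFP, and Ccl3, Ccl4, Ccl6, Ccl8, Ccl9, Ccl11, Ccl12, Ccl24, Cxcl3, Cxcl14, Ppbp and Ccl22 had 0 counts in every library. The receptors were nearly silent too: 0 of 10 passed the filter, Cxcr2, Ccr1, Ccr2, Ccr3 and Ackr1 had 0 counts, and Cxcr6, the receptor of CXCL16, had the most with 47 counts over the 12 libraries.

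Other genes of the pathway were described through lists drawn up by function, with earlier results of these data known. Some listed genes also passed the filter only through groups where they were high. The counts of calls therefore describe the listed genes, and nothing is read from setting them against the shares of all genes. Of 13 NF-kB subunits and feedback genes 11 were higher and 0 lower with knockdown in the presence of IFNγ, with a median log2 fold change of 1.33 against 0.02 for all tested genes. Without IFNγ 9 were higher and 0 lower, with a median of 0.37 against 0. Of all tested genes 18.9% were called higher and 17.4% lower with knockdown in the presence of IFNγ, and 14% and 14.6% without it. Relb, a subunit of the non-canonical pathway, averaged 22.4 ± 1.45 CPM in shSdc1 + IFNγ and 7.69 ± 1.22 CPM in shRFP + IFNγ, with 16.3 ± 1.72 CPM in shSdc1 and 10.7 ± 1.18 CPM in shRFP (SD, n = 3 each). Tnfaip3, which encodes the feedback inhibitor A20, differed by 1.59 ± 0.23 (edgeR adjusted p = 2.98e-05) with IFNγ, and by 1.02 ± 0.26 (edgeR adjusted p = 0.00648) in unstimulated cells. IFNγ in shSdc1 cells called 9 of the 13 higher and 0 lower, where 17.5% and 13% of all tested genes were called. In shRFP cells it called 3 higher and 3 lower, where the shares were 17.2% and 14.4%. The interaction called 5 of the 13 higher and 0 lower, against 4.58% and 5.15% of all tested genes.

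Of 15 other transcription factors known at chemokine promoters 11 were tested, and the knockdown called 6 higher and 0 lower with IFNγ and 7 higher and 0 lower without it. The shares of all tested genes were 18.9% higher and 17.4% lower with IFNγ, and 14% and 14.6% without it. The medians were 0.78 and 0.48 on the log2 scale. Fosl2, an AP-1 member, averaged 95.8 ± 4.96 CPM in shSdc1 + IFNγ and 26.8 ± 5.65 CPM in shRFP + IFNγ, with 52.7 ± 1.48 CPM in shSdc1 and 17.5 ± 0.432 CPM in shRFP (SD, n = 3 each). Cebpd, a C/EBP factor of acute-phase responses, differed by 2.36 ± 0.19 (edgeR adjusted p = 1.32e-08) with IFNγ, and by 0.52 ± 0.19 (edgeR adjusted p = 0.0451) in unstimulated cells. Of 10 genes for proteins that control the decay of such mRNAs 7 were higher with IFNγ and 5 without it, and 0 were lower, with medians of 0.28 and 0.14. Zc3h12a, which encodes the ribonuclease Regnase-1, was among them at 1.37 ± 0.13 (edgeR adjusted p = 1.06e-07) with IFNγ and 0.96 ± 0.14 (edgeR adjusted p = 2.31e-05) in unstimulated cells. A list of 18 genes held inflammatory cytokines, receptors and the adaptor Myd88, with Il6ra, Il6st and Osmr among the receptors. Of these 12 were tested, and 7 were higher and 0 lower in each setting, with medians of 0.63 with IFNγ and 0.44 without it. Tlr2, a receptor for bacterial lipoproteins, differed by 2.18 ± 0.20 (edgeR adjusted p = 1.17e-07) with IFNγ, and by 1.12 ± 0.36 (edgeR adjusted p = 0.0259) in unstimulated cells.

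**Figure D4:**
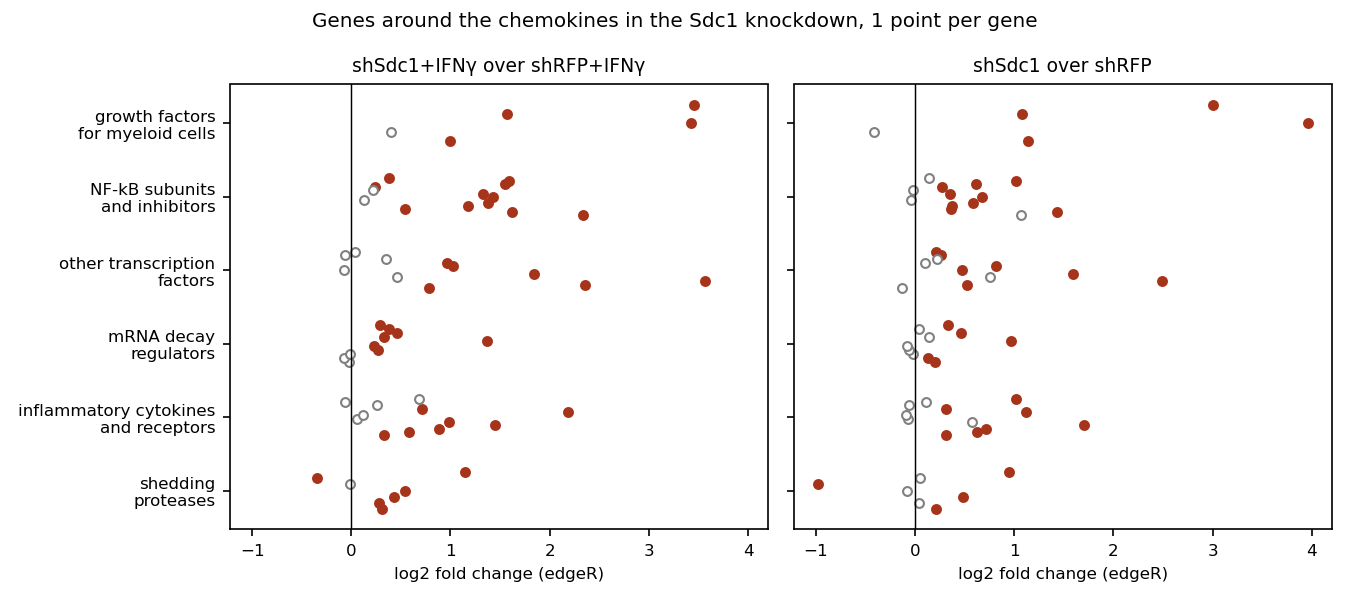
Log2 fold change with knockdown of each tested gene of the pathway lists, with and without IFNγ; 1 point per gene, filled where the edgeR adjusted p was under 0.05. Points of the NF-kB list with IFNγ centre on a median of 1.33, against 0.37 without it.

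The proteins that cut CX3CL1 and CXCL16 from the cell surface, with their partners and an inhibitor, formed a list of 7 tested genes. The knockdown called 5 higher and 1 lower with IFNγ and 3 higher and 1 lower without it, with medians of 0.31 and 0.05 on the log2 scale. Of all tested genes 18.9% and 17.4% were called in those directions with IFNγ, and 14% and 14.6% without it. Adam10 averaged 220.4 ± 5.99 CPM in shSdc1 + IFNγ and 177.4 ± 5.87 CPM in shRFP + IFNγ, and 199.7 ± 4.84 CPM in shSdc1 against 172.0 ± 6.45 CPM in shRFP (SD, n = 3 each). Tspan15, a tetraspanin partner of ADAM10, differed by 1.15 ± 0.13 (edgeR adjusted p = 1.69e-06) with IFNγ, and by 0.95 ± 0.14 (edgeR adjusted p = 2.75e-05) in unstimulated cells. Tspan14, another tetraspanin of the list, was the gene called lower with IFNγ, at -0.34 ± 0.06 (edgeR adjusted p = 8.78e-05). In unstimulated cells Tspan14 did not pass, at 0.05 ± 0.06 (edgeR adjusted p = 0.58). Timp3, an inhibitor of both proteases, was lower without IFNγ, at 17.4 ± 1.19 CPM in shSdc1 and 34.2 ± 2.63 CPM in shRFP, a log2 fold change of -0.98 ± 0.08 (edgeR adjusted p = 3.43e-08). With IFNγ Timp3 did not pass, at -0.02 ± 0.08 (edgeR adjusted p = 0.894).

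Of 8 growth factors for myeloid cells 5 were tested, and 4 were higher and 0 lower with knockdown in each setting, with medians of 1.57 with IFNγ and 1.14 without it. The shares of all tested genes, for this list and the core proteins below, were 18.9% higher and 17.4% lower with IFNγ and 14% and 14.6% without it. A fit of the unstimulated groups alone, whose filter keeps fewer genes, called 2 of the growth factors without IFNγ. Il34 and Lif passed the filter only through the knockdown groups, where they were high. The growth factor counts therefore describe the genes, and nothing is read from setting them against the shares of all genes. Csf1, which encodes the macrophage growth factor M-CSF, averaged 276.8 ± 8.60 CPM in shSdc1 + IFNγ, 138.9 ± 3.65 CPM in shRFP + IFNγ, 74.3 ± 4.06 CPM in shSdc1 and 33.8 ± 2.49 CPM in shRFP (SD, n = 3 each). Its knockdown difference was 0.99 ± 0.05 with IFNγ (edgeR adjusted p = 3.46e-11) and 1.14 ± 0.06 without it (edgeR adjusted p = 3.25e-11). Il34, the other ligand of the M-CSF receptor, had 125 counts in shSdc1 + IFNγ and 10 in shRFP + IFNγ, and 34 in shSdc1 against 2 in shRFP. Lif, a cytokine of the interleukin-6 family, had 90 counts in shSdc1 + IFNγ and 7 in shRFP + IFNγ, and 32 in shSdc1 against 4 in shRFP. Of 7 heparan sulfate core proteins, Sdc1 included, 4 were higher and 2 lower in each setting, and Gpc4, a glypican, was higher by 2.54 ± 0.32 with IFNγ (edgeR adjusted p = 4.44e-06) and 1.88 ± 0.30 without it (edgeR adjusted p = 8.51e-05).

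The genes whose pattern over the 12 libraries was most like each chemokine were found by the root-mean-square difference of centred log2 CPM, among genes that reached an average of 5 CPM or more in some group. For Cxcl1 they were Lrig1, at 0.54, and Tnfrsf9 and Fgd3, where Cxcl1's own pattern had a root-mean-square size of 2.26. Lrig1 averaged 10.4 CPM in shSdc1 + IFNγ, 0.510 in shRFP + IFNγ, 3.01 in shSdc1 and 0.208 in shRFP. For Cx3cl1 they were Arntl2, at 0.17, Nfkbiz, at 0.20, and Parp8, where the pattern of Cx3cl1 itself had a size of 0.67. Nfkbiz averaged 34.7 CPM in shSdc1 + IFNγ, 13.8 in shRFP + IFNγ, 12.6 in shSdc1 and 9.94 in shRFP. Spp1, Ppm1e and Lurap1l were nearest to Ccl20, Cbr2, Lurap1l and Cdsn to Ccl2, and Tgm2, Vdr and Thbs1 to Cxcl2, at 0.40 to 0.47. For Cxcl16 the nearest, Rpl7a-ps11, lay at 0.47 where the pattern of Cxcl16 itself had a size of 0.67, so its likeness is weak.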

How the data were processed

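RNA-seq of 12 B16 libraries was analysed. The authors deposited whole-number read counts for each gene, not normalized; Trimmomatic, HTSeq, HISAT2 2.0.5 and the build GRCm39 are named in the submitters' processing notes, while the annotation and the use of strand are not given there. GENCODE M21 (GRCm38) supplied symbols, which matched 52083 of 56093 entries; other entries stayed in the fit, including 677 assembled loci. Exon lengths came from the same annotation, and neighbours and promoters from RefSeq (GRCm38.p6), so no coordinates of the counts are given. No column was left unmapped, and no pair of replicates was closer than sampling noise (lowest chi-square per degree of freedom 2.38). By this measure shSdc1 replicate 3 stood apart from replicates 1 and 2 of its group, at 63.8 and 62.8. The highest value of any other pair was 8.01, and the cause was not tested.

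Counts were filtered with filterByExpr (minimum count 10, total 15), scaled by TMM and fitted with edgeR 4.0.16 in R 4.3.3 over all 12 libraries, with 1 coefficient per group, a common biological coefficient of variation of 0.0633 and 8 residual degrees of freedom. The 7 comparisons were knockdown without IFNγ, knockdown with it, IFNγ in shRFP cells, IFNγ in shSdc1 cells, their interaction, both against neither, and knockdown alone against IFNγ alone. Two-sided quasi-likelihood p-values were adjusted by Benjamini-Hochberg over all 14089 genes, with a threshold of 0.05. The SE is the log2 fold change over the square root of F, and it can fall below counting error for genes with few counts, for which exact 95% intervals of the count ratio are given. A group at 0 was set to 3 counts over the group for a ratio, which leaves out the counting error of the other group.

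Every member was named in every library. Genes of the lists were named, at most 4 per list and comparison, taking the greatest changes among called genes that averaged 1 CPM or more in a group, and 3 genes most like each member by root-mean-square difference. The members and the lists were chosen with earlier results of these data known; values of Cxcl5, Cxcr1, Cxcr6, Tnf and Zmynd15 and the flanking genes were added for their place beside the members. Alternatives were 2 other scalings, DESeq2 1.42.0, voom in limma 3.58.1, no filter, a fit of the compared groups only, a replicate block, leaving out each library, and, added after seeing the data, a fit without the assembled loci and ENSMUSG00000119584. The steps were tested on simulated data for knockdown without IFNγ. Changes were set only in genes well counted in shRFP. That test does not cover genes with few counts there, Cxcl1, Cxcl2, Ccl2, Ccl20 and Cxcl16 included. Sequence matching and figures used Python 3.11.15 with pandas 2.3.3, numpy 2.4.6 and matplotlib 3.10.9.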

Additional observations from a re-analysis of the deposited data

Results flagged for a closer look

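No chemokine of the set had a knockdown effect that differed past the threshold between cells with and without IFNγ. Genes of the other lists were named only where called, at most 4 per list, so the number given here follows from that rule. The edgeR interaction term (knockdown effect with IFNγ minus that without, log2 scale, adjusted over all tested genes) passed for 19 genes so named. Over all tested genes it called 4.58% higher and 5.15% lower. In the NF-kB list it was 0.98 for Nfkbiz, 0.93 for Relb, 0.80 for Nfkb2 and 0.79 for Nfkbia. Among other transcription factors it was 1.83 for Cebpd, 0.92 for Atf3, 0.87 for Junb and -0.55 for Irf1. In the shedding list it was 0.96 for Timp3, 0.62 for Rhbdf2, 0.25 for Adam17 and -0.39 for Tspan14. Ccl5 of the T cell chemokines stood at 1.11. Smaller terms were 0.34 for Zfp36l1 and 0.33 for Rc3h1 of the mRNA decay list, 0.40 for Tlr3, 0.40 for Sdc4, 0.32 for Hspg2 and -0.23 for Mlana.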

How the results depend on the processing

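Of 816 recomputed chemokine values under up to 20 alternatives, 782 kept their direction and their side of the threshold. The number of chemokines called moved by over 1.5 times only in a fit of the compared groups alone, whose own filter dropped Cxcl2, Ccl2 and Ccl20: to 2 without IFNγ and to 1 for knockdown alone against IFNγ alone. In the fit without IFNγ the filter dropped Cxcl16 as well. With the replicate number as a block the counts were 4, 5, 2, 5, 0, 5 and 3, as without it, in the order of the comparisons listed in the methods. Same-numbered libraries did not deviate together (correlations of -0.0677 to 0.0326). This cannot settle whether libraries with the same number were handled together, which the labels do not say. Without shSdc1 replicate 3 the counts were 4, 5, 2, 5, 0, 5 and 2. Signs turned, with no call on either side, for the knockdown difference of Cxcl16 without IFNγ by DESeq2 (0.0064), the interaction of Cxcl2 by voom (0.52) and that of Ccl20 with DESeq2 size factors (-0.0076), no filter (-0.027) and the block (-0.012); the cause was not tested. Leaving out 1 library gave log2 values from -0.71 to 0.43 for Cxcl16 with knockdown without IFNγ, -2.59 to 1.97 for Ccl2 and -1.81 to 3.25 for Ccl20 with IFNγ in shRFP, -0.30 to 0.80 for Cxcl16 with IFNγ in shSdc1, -1.76 to 3.30 for the interaction of Ccl20, -0.32 to 0.54 for Cxcl16 in both against neither, and -0.24 to 1.69 for Cxcl2 in knockdown alone against IFNγ alone. Voom called Ccl2 without IFNγ (adjusted p = 0.0174) and Cxcl2 with IFNγ in shRFP (adjusted p = 0.0294, alternatives 0.0294 to 0.182), and without shSdc1 replicate 1 edgeR called Cxcl2 there too, at an adjusted p of 0.0383. The interaction called 1371 of all tested genes, and 847 without shRFP replicate 1, 839 without shRFP replicate 2, 789 without shSdc1 replicate 1 and 822 without shSdc1 + IFNγ replicate 2. Of 1807 list counts 1736 stayed within 1.5 times. Depth limits Cxcl2, Ccl2 and Ccl20 in control cells, where 0 to 3 counts a library set the fold.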

Other observations

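Cxcr1, a neutrophil receptor for CXC chemokines, had 9 counts in shSdc1 + IFNγ and 11 in shRFP + IFNγ, and 0 in shSdc1 and in shRFP, too few for the filter. Cxcr6 had 20 counts in shSdc1 + IFNγ, 12 in shRFP + IFNγ, 10 in shSdc1 and 5 in shRFP. Tnf, an inducer of NF-kB that did not pass the filter either, had 27 counts in shSdc1 + IFNγ, 7 in shRFP + IFNγ, 7 in shSdc1 and 2 in shRFP.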
